A study of Mus musculus with 4 samples.

Results

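A set of 6 genes of the voltage-gated sodium channel system were followed by symbol, out of 21884 genes counted: the intracellular fibroblast growth factors Fgf12, Fgf13 and Fgf14, the pore-forming subunits Scn7a and Scn10a, and the accessory beta subunit Scn4b. All 6 were listed in each of the 4 libraries. Each library was the nuclei of 1 whole heart from a male wild-type C57BL/6J mouse, profiled by droplet single-nucleus RNA sequencing of transcript 3' ends. Every mouse had its own heart injured 1 day after birth, and hearts were taken 21 days after that injury. In the injured-father group (2 libraries) the father also had a cardiac injury, and in the uninjured-father group (2 libraries) the father had none, so that no uninjured offspring served as a baseline. Cells marked by a Ter119 antibody were sorted away, and nuclei classed as lymphocytes and macrophages or monocytes remained. How many fathers and litters were used is not stated.

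Voltage-gated sodium channels carry the fast inward current that starts the action potential of heart muscle and of neurons. The pore is 1 large alpha subunit, and beta subunits are membrane proteins that modify its gating and surface level. Intracellular fibroblast growth factors, also called fibroblast growth factor homologous factors, are not secreted: they bind the tail of the alpha subunit inside the cell and shift the voltage at which the channel inactivates. Scn7a encodes a sodium-level sensing relative of these channels, and Scn10a encodes a channel best known from sensory neurons.

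The genes lie apart in the genome. In GENCODE M21 (build GRCm38) all 6 are protein-coding. Fgf12 lies on the minus strand of chromosome 16 from 28160098 to 28753068, Fgf13 on the minus strand of chromosome X from 59062145 to 59568071, and Fgf14 on the minus strand of chromosome 14 from 123977907 to 124677127. Scn7a lies on the minus strand of chromosome 2 from 66673425 to 66784914. Scn4b lies on the plus strand of chromosome 9 from 45138395 to 45154152, and Scn10a on the minus strand of chromosome 9 from 119608456 to 119719322. Nuclear RNA holds many unspliced transcripts, so that counts per gene can rise with gene length, and levels are compared here between nuclei and never between genes.

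The 250 bases before a start site are shown for 3 genes whose highest levels fell in different nuclei: Fgf12 (atrial), Fgf13 (ventricular) and Scn7a (Schwann or glial). They are RefSeq windows on GRCm38.p6, written 5' to 3' on the gene's minus strand, and for Fgf12 and Fgf13 the first of 4 windows each. Capitals mark matches, on either strand, to motifs of 4 families of transcription factors. The T-box motif searched was AGGTGT. For the SOX family the letters were ACAAAG. For GATA factors the motif was AGATAA. The pattern searched for MEF2, chosen after the windows had been seen, was CTA, then any 4 bases, then TAG. It is a loose pattern, since the 4 middle bases were not held to A or T. No 2 matches overlap.
Fgf12 (chr16:28753244-28753493): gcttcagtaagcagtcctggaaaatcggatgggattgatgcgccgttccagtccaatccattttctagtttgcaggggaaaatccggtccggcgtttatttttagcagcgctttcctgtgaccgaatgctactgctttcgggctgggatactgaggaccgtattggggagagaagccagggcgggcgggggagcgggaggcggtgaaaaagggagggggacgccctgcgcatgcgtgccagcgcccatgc
Fgf13 (chrX:59585573-59585822): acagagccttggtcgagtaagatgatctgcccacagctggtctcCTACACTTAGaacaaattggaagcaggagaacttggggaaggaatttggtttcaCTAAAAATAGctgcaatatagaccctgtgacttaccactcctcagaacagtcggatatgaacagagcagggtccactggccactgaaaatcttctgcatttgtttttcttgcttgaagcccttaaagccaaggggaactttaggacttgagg
Scn7a (chr2:66784911-66785160): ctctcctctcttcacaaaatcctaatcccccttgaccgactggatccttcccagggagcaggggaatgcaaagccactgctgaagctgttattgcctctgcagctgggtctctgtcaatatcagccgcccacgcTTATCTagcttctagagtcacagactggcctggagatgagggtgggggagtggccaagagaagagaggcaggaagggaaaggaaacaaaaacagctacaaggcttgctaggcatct
The Fgf13 window, which lies outside the GENCODE bounds of the gene given above, held 2 matches to the loose MEF2 pattern. Only CTAAAAATAG had A or T alone as middle bases, and CTACACTTAG did not. Of 32851 windows of the same length, 3.20% held at least 1 match to the loose pattern. The other 3 RefSeq windows of Fgf13 held no MEF2 match, and 1 of them held a SOX match. The Scn7a window held 1 GATA match, TTATCT on the strand shown, and 9.99% of windows held at least 1. The Fgf12 window shown held none of the 4 motifs. Among the windows of Fgf12 that are not shown, 1 held a T-box match. T-box matches were in 11.8% and SOX matches in 16.5% of all windows. The libraries measure no binding at these windows, and a match is a description only.

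After filters and removal of doublets, 34002 nuclei remained, between 6795 and 9545 per library, with 15682280 to 32963608 unique molecular identifiers (UMIs, counted molecules) in a library and a median of 1864 to 2671 in a nucleus. The second uninjured-father library was the shallowest and had the most predicted doublets, 14.8% against 9.62% to 9.90% in the other libraries. Of the barcodes, 119 occurred in more than 1 library (0.350% of nuclei). Nuclei were clustered without the 6 genes and without 23 related genes, and clusters were named by marker lists as atrial cardiomyocyte-like, ventricular cardiomyocyte-like and so on. The short names below mean likeness by markers. Levels are UMIs of a gene per 1000000 UMIs of a class in a library (CPM).

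The atrial class carried its markers: the summed level of 8 atrial markers was 1660 to 2524 CPM there and 43.9 to 98.8 CPM in ventricular nuclei. It held 973 nuclei and was unevenly filled. In the injured-father libraries it had 232 and 371 nuclei, 12.2% and 14.6% of cardiomyocyte nuclei. In the uninjured-father libraries it had 277 and 93 nuclei, 9.64% and 4.40%. At a finer clustering (resolution 2.0), 256 of these nuclei formed a cluster with Cntn2, a gene known from the conduction system, among its leading genes. They were 22.8% and 17.3% of the atrial class in the injured-father libraries and 33.9% and 48.4% in the uninjured-father libraries.

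Fgf12 RNA was almost wholly in atrial nuclei. Its level in the atrial class was 13118 and 14895 CPM in the injured-father libraries and 10494 and 8028 CPM in the uninjured-father libraries, a mean of 11634 ± 3008 (SD, n = 4). In ventricular nuclei it was 41.2, 61.1, 31.9 and 10.6 CPM in the same order, the lowest of the 11 classes with at least 30 nuclei in every library. The atrial class held 59584 of 67607 Fgf12 UMIs. On average over libraries, 84.3% of atrial nuclei had an Fgf12 UMI (range 68.8% to 93.0%, median depth 4108 UMIs), and 80.1% did when every nucleus was thinned to 1000 UMIs. In ventricular nuclei, at a median depth of 4346 UMIs, the shares were 16.5% and 4.16%.

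**Figure D1:**
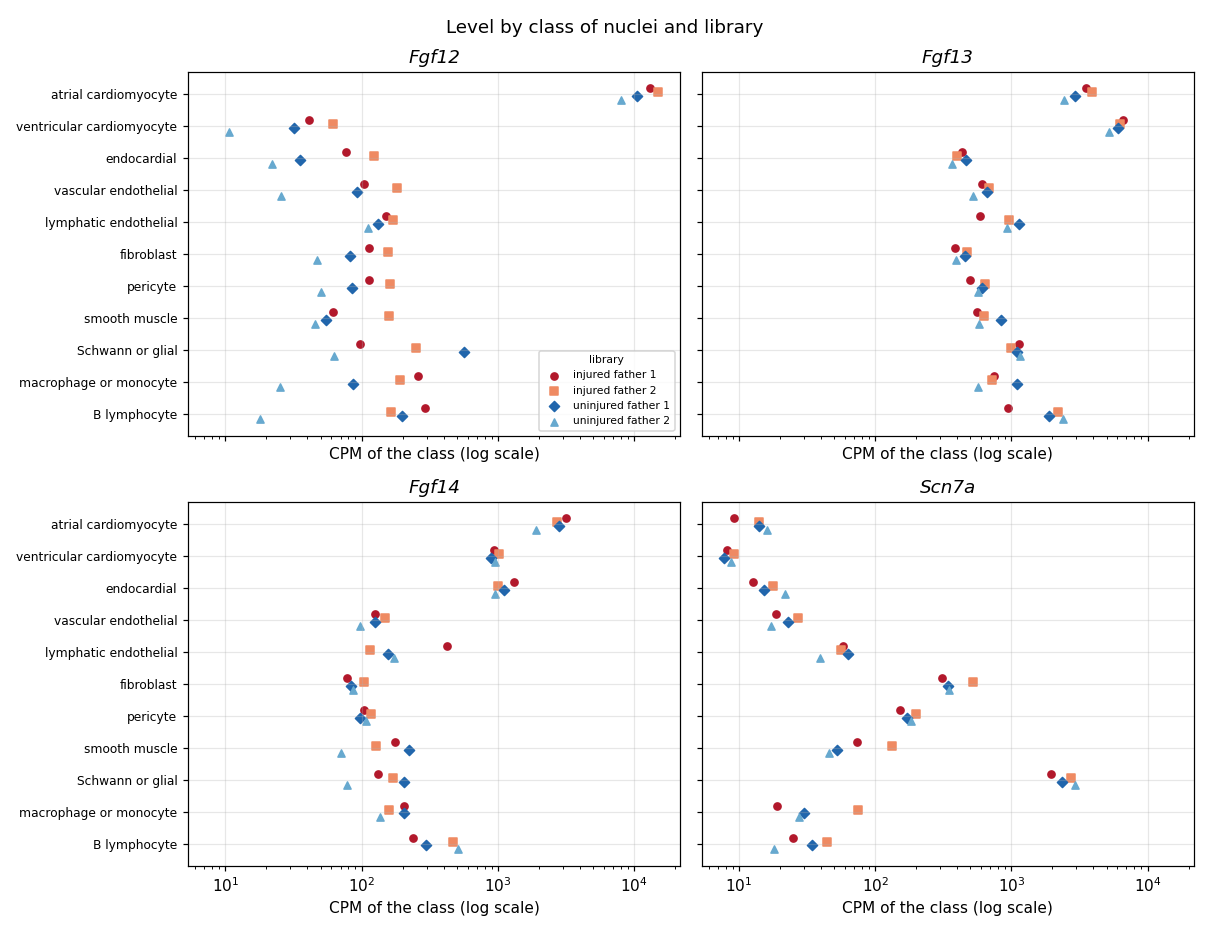
Level (CPM, log scale) of Fgf12, Fgf13, Fgf14 and Scn7a in 11 classes of nuclei, 1 point per library. Fgf12 is at or above 8028 CPM in the atrial class of every library and at or below 566 CPM in every other class shown, Fgf13 is highest in ventricular nuclei, Fgf14 is near 1000 CPM in endocardial as in ventricular nuclei, and Scn7a is highest in Schwann or glial nuclei.

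Outside the atrial class Fgf12 was low. Ventricular, fibroblast, vascular endothelial, endocardial, pericyte and smooth muscle nuclei held 0.172 to 0.275 Fgf12 UMIs per nucleus, against 61.2 in atrial nuclei. By library the ventricular nuclei held 0.219 and 0.360 (injured father) and 0.182 and 0.0386 (uninjured father), and the vascular endothelial nuclei held 0.175, 0.373, 0.171 and 0.0378. The 2 classes thus carried like amounts per nucleus in each library. The order of the libraries was that of Fgf12 in all nuclei summed, 627 and 1019 CPM with injured fathers and 519 and 186 CPM with uninjured fathers. Relative to all UMIs of the class the ventricular level was the lower, 10.6 against 25.4 CPM in the second uninjured-father library. The part of free RNA from broken cells in these levels was not tested.

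**Figure D2:**
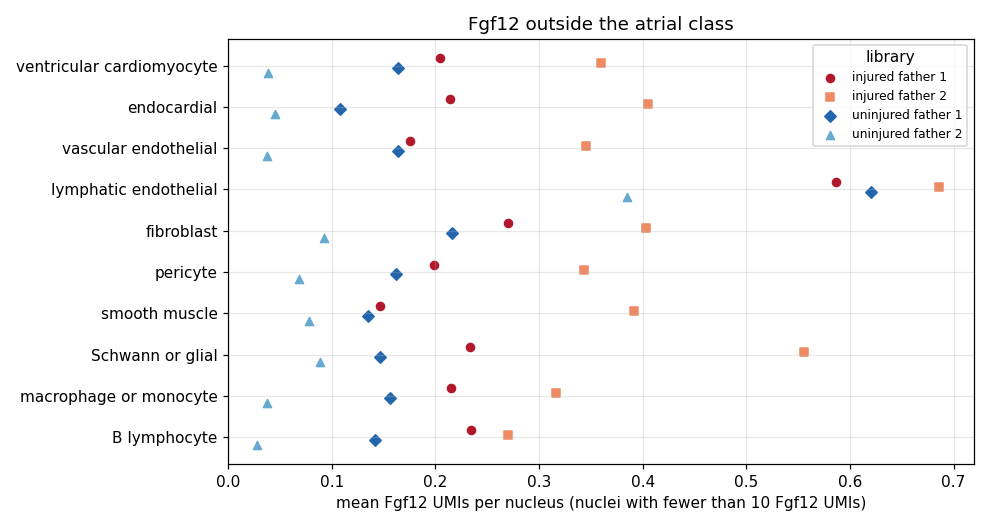
Mean Fgf12 UMIs per nucleus in the 10 classes other than atrial, 1 point per library, over nuclei with fewer than 10 Fgf12 UMIs. In most classes the libraries take the same order, and lymphatic endothelial nuclei lie above the other classes in all 4 libraries.

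A few nuclei departed from these low amounts. Of 398 T or NK lymphocyte nuclei, 3 had at least 10 Fgf12 UMIs and held 69.5% of the Fgf12 UMIs of the class. In the Schwann or glial class 1 nucleus with 86 UMIs held 57.3%, and in the macrophage or monocyte class 3 nuclei held 33.2%. Lymphatic endothelial nuclei differed from these: none of 378 had 10 or more, yet the mean was 0.595 UMIs per nucleus, at 0.586 and 0.686 with injured fathers against 0.620 and 0.385 otherwise. Their level was 151, 170, 131 and 111 CPM. In the second uninjured-father library that was the highest Fgf12 level outside the atrial class, against 25.4 CPM in vascular endothelial nuclei. In the other libraries it overlapped the levels of other non-muscle classes.

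Fgf13, the intracellular growth factor known as the main one of mouse ventricle, was highest in ventricular nuclei. It was 6615 and 6278 CPM with injured fathers and 6071 and 5166 CPM with uninjured fathers, a mean of 6033 ± 620 (SD, n = 4), and 99.7% of ventricular nuclei had a UMI. So had 61.8% of fibroblast nuclei (median depth 2217 UMIs), so a share with a UMI separates Fgf13 poorly. Atrial nuclei came next with 3534, 3901, 2925 and 2434 CPM, a mean of 3198 ± 650 (SD, n = 4), and did not overlap the ventricular values. B lymphocyte nuclei followed at 1851 ± 640 and Schwann or glial nuclei at 1096 ± 75.4 (SD, n = 4). In the B lymphocyte class 12 of 706 nuclei, each with at least 10 Fgf13 UMIs and 1 with 228, held 45.2% of the Fgf13 UMIs. Without them the second uninjured-father library went from 3.62 to 0.829 Fgf13 UMIs per nucleus, and the first injured-father library from 1.37 to 1.17.

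Fgf13 was also counted at a lower level in the other 7 of the 11 classes, from 414 ± 43.0 CPM in endocardial nuclei to 900 ± 231 CPM in lymphatic endothelial nuclei. Beside it, RNA of sarcomere genes was counted in the same nuclei. Relative to all cardiomyocyte nuclei, Fgf13 stood at 7.18% in endocardial, 7.41% in fibroblast and 10.7% in vascular endothelial nuclei. Myh6, the atrial and adult ventricular myosin heavy chain of mouse heart, stood at 9.09%, 9.29% and 14.3% in the same classes. Ttn, the giant sarcomere protein titin, stood lower than Fgf13 there, at 4.57%, 4.56% and 6.58%. Actc1, another sarcomere gene, stood higher than Fgf13, at 24.2%, 21.2% and 38.2%. In B lymphocyte nuclei Fgf13 stood at 32.8% and Myh6 at 28.5%, so both genes were raised there together. In lymphatic endothelial nuclei Fgf13 stood at 15.8%, with Myh6 at 7.94%, Ttn at 4.74% and Actc1 at 18.6%. There 30 of 378 nuclei held 50.7% of the Fgf13 UMIs, up to 132 in 1 nucleus. The part of myocyte RNA in these levels was not tested.

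Fgf14 was highest in atrial nuclei and was also present in endocardial nuclei, the lining of the heart chambers. In the atrial class it was 3192 and 2731 CPM with injured fathers and 2804 and 1895 CPM with uninjured fathers, a mean of 2655 ± 546 (SD, n = 4). Endocardial nuclei had 1310, 1011, 1106 and 959 CPM, a mean of 1096 ± 155, and ventricular nuclei had 935, 1015, 895 and 953 CPM, a mean of 949 ± 50.01 (SD, n = 4). The endocardial and ventricular values overlapped. The endocardial level was 98.9% of that in all cardiomyocyte nuclei (80.9% to 113% by library). Ttn stood at 4.57%, Fgf13 at 7.18% and Actc1 at 24.2% there. The atrial markers Nppa and Myl7 stood higher, at 32.4% (19.5% to 46.3%) and 81.0% (33.2% to 213%). The part of myocyte RNA in the endocardial Fgf14 level was not tested. Of the 1168 nuclei, 126 had at least 10 Fgf14 UMIs and held 60.4% of the Fgf14 UMIs of the class. A separate cluster of 276 nuclei carried endocardial and fibroblast markers together, at a median of 6307 UMIs against 2525.5 in the endocardial class, and was left out after being seen. It was 0.703% and 1.14% of the injured-father libraries and 0.924% and 0.324% of the uninjured-father libraries, with 515 ± 135 CPM of Fgf14 (SD, n = 4). Joined to the endocardial class it gave 898 ± 117 CPM.

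Among endocardial nuclei, 52.7% had an Fgf14 UMI (mean over libraries) and 40.5% did after thinning to 1000 UMIs (36.4% to 44.7%). In vascular endothelial nuclei, the related lining of the vessels, the thinned share was 11.6% (9.62% to 14.0%) and the level 124 ± 20.7 CPM. Fibroblast nuclei had 87.8 ± 11.8 CPM and pericyte nuclei 106 ± 7.83 CPM, whose library values overlapped. Adipocyte nuclei had 1021 CPM in the first injured-father library, from 172 nuclei, and 295 CPM in the second, from 108 nuclei. The uninjured-father libraries held only 18 and 7 adipocyte nuclei.

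Scn7a followed other nuclei than the growth factors. In Schwann or glial nuclei it was 1936 and 2754 CPM with injured fathers and 2338 and 2950 CPM with uninjured fathers, a mean of 2495 ± 451 (SD, n = 4), and 88.9% of these nuclei had a UMI (median depth 1728 UMIs), against 4.02% of ventricular nuclei. Fibroblast nuclei came second at 308, 522, 345 and 349 CPM, a mean of 381 ± 95.9, followed by pericyte nuclei at 151, 200.5, 172 and 184 CPM, a mean of 177 ± 20.7 (SD, n = 4). These 3 classes did not overlap. In cardiomyocyte nuclei Scn7a was near the lowest, 8.42 ± 0.618 CPM in ventricular and 13.3 ± 2.84 CPM in atrial nuclei. Smooth muscle nuclei had 75.8 ± 39.6 CPM and lymphatic endothelial nuclei 53.8 ± 10.3 CPM, which overlapped.

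Scn10a and Scn4b were rarely counted. Scn10a had 114 UMIs in all nuclei, of which 57 were in the 973 atrial nuclei and 41 in the 8453 ventricular nuclei. Its atrial level was 14.4 and 9.45 CPM with injured fathers and 11.7 and 25.5 CPM with uninjured fathers. No Scn10a UMI was counted in 5 of 14 classes, where a count of 0 allows up to 0.874 to 5.77 CPM. Scn4b, whose product is a beta subunit of the cardiac channel, had 29 UMIs in all nuclei, and its level of 0.279 ± 0.1197 CPM in ventricular nuclei was too low for any comparison. Its highest class by mean was smooth muscle, with 5 UMIs. No Scn4b UMI was counted in 5 of 14 classes, with limits of 1.93 to 7.57 CPM. These limits cover counting error only.

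The atrial and ventricular difference was tested on cardiomyocyte nuclei classed by fixed markers that hold none of the 6 genes: 790 atrial nuclei by Myl7, Myl4, Nppa and Sln, and 7417 ventricular nuclei by Myl2. Fgf12, Fgf14 and Scn10a were higher in atrial nuclei, Fgf13 was lower, and Scn7a did not pass. Of 5 genes tested, 4 were called by edgeR's quasi-likelihood test with the library as a block, at an adjusted p under 0.05. Of all 11550 genes tested 25.1% were called, 13.3% higher and 11.8% lower in atrial nuclei, so that a call in this comparison is common. The 6 genes were chosen with earlier results of these data known, among them that Fgf12 marks atrial nuclei. The Fgf12 test is therefore no independent support.

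Fgf12 was 14370 and 15481 CPM (injured father) and 12857 and 9143 CPM (uninjured father) in atrial nuclei, and 91.0, 72.5, 60.7 and 32.5 CPM in ventricular nuclei. The log2 difference was 7.68 (SE 0.11, adjusted p = 1.71e-25), and the ratio within a library ran from 158 to 281. It was 8.38 with nuclei classed by cluster and 8.78 with the clusters of resolution 2.0. Of the 7417 nuclei called ventricular by marker, 125 lay in the atrial cluster. Fgf14 had a mean of 2622 ± 630 CPM in atrial and 953 ± 49.2 CPM in ventricular nuclei (SD, n = 4). Its log2 difference was 1.42 (SE 0.10, adjusted p = 1.34e-11), and every library had more in atrial nuclei.

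Fgf13 went the other way, with 3582 ± 421 CPM in atrial and 6025 ± 614 CPM in ventricular nuclei (SD, n = 4). Its log2 difference was -0.78 (SE 0.07, adjusted p = 9.84e-10), and it was lower in atrial nuclei of every library. Scn10a had 9.25 and 10.6 CPM with injured fathers and 7.68 and 8.06 CPM with uninjured fathers in atrial nuclei, against 0.916 to 2.19 CPM in ventricular nuclei. Its log2 difference was 2.94 (SE 0.43, adjusted p = 5.9e-06). Scn7a differed by 0.57 (SE 0.27, adjusted p = 0.123). These 4 calls held in every alternative tried.

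Other genes of the channel complex also differed between the chambers. Of 23 listed (alpha and beta subunits, Fgf11 and partner proteins), 15 were tested: 1 was called higher in atrial nuclei and 4 lower, beside 13.3% and 11.8% of all genes tested, with a median log2 difference of -0.05 beside -0.01 over all genes. Nedd4l, a ubiquitin ligase that acts on sodium channels, was higher by 0.99 (SE 0.08, adjusted p = 7.04e-10), at 493 ± 78.8 against 245 ± 20.9 CPM (SD over 4 libraries). Pkp2, a desmosome protein, was at -0.56 (SE 0.08, adjusted p = 6.14e-06), and Gpd1l, a modifier of channel surface level, at -0.76 (SE 0.19, adjusted p = 0.00413). Cav3, a caveolin, was at -0.56 (SE 0.15, adjusted p = 0.00725).

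**Figure D3:**
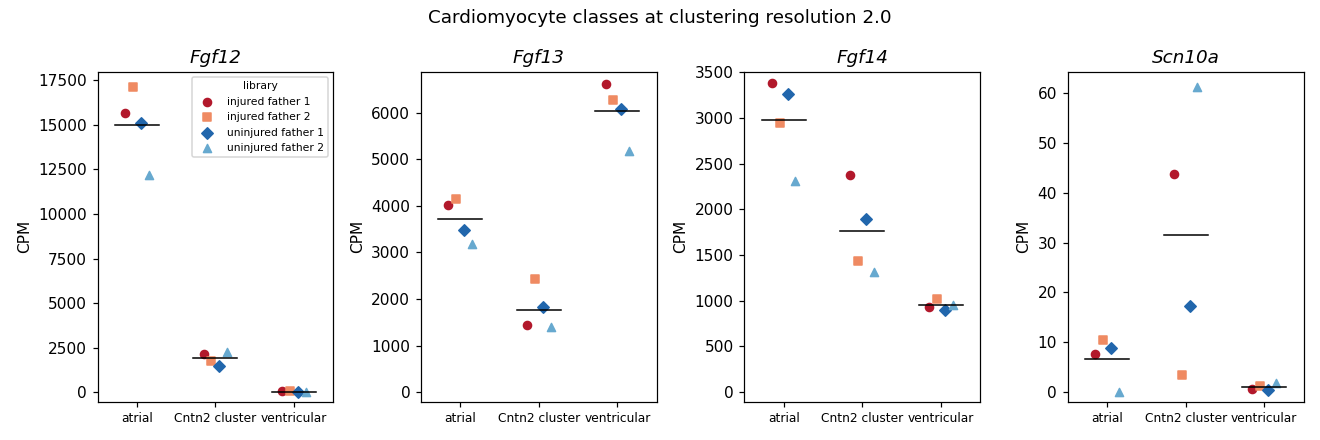
Level (CPM) of Fgf12, Fgf13, Fgf14 and Scn10a in the 3 cardiomyocyte classes at clustering resolution 2.0, 1 point per library, bars at the mean of 4 libraries. Nuclei of the Cntn2 cluster lie between atrial and ventricular nuclei for Fgf12 and Fgf14 and below both for Fgf13; Scn10a differs widely between libraries in these few nuclei.

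The nuclei of the Cntn2 cluster had their own balance of the 3 growth factors. Fgf12 was 2140 and 1749 CPM with injured fathers and 1485 and 2239 CPM with uninjured fathers, where the atrial nuclei set apart from them had 15652, 17116, 15083 and 12173 CPM. Fgf13 was 1439, 2419, 1838 and 1399 CPM, below the atrial (3175 to 4154 CPM) and ventricular values in every library. Fgf14 was 2381, 1440, 1899 and 1315 CPM, between the atrial mean of 2976 ± 480 and the ventricular mean of 950 ± 53.2 CPM. Scn10a was 43.8, 3.44, 17.4 and 61.1 CPM there, from 25 UMIs in all. The libraries held 45 to 94 of these nuclei each, and the cluster was defined on the same nuclei, so no test was made.

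Paternal injury was compared by class, 2 libraries against 2, in 11 classes with at least 30 nuclei in every library. Scn4b passed the filter on low counts in no class, so it was not tested, and Scn10a passed in 2. Of 45 tests of the other members and Scn10a, 1 was called: Fgf12 was higher with injured fathers in macrophage or monocyte nuclei. At an unadjusted p under 0.05 there were 11, of which 9 were tests of Fgf12, beside 4.59% of the tests of all genes in these classes. DESeq2 called none. Among all genes tested, edgeR called 0.679% in atrial, 0.132% in macrophage or monocyte, 0.0299% in pericyte, 0.0299% in Schwann or glial, 0.0240% in endocardial, 0.0161% in fibroblast and 0.00815% in ventricular nuclei, and 0% in the other 4 classes.

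Fgf12 in atrial nuclei was 13118 and 14895 CPM with injured fathers, above the 10494 and 8028 CPM with uninjured fathers. The log2 difference was 0.63 (SE 0.19), with an adjusted p of 0.240 by edgeR, and was not called. Of all genes tested in this class, 36.6% had groups that did not overlap, so that the separation is common. With the nuclei of the Cntn2 cluster set apart it was 0.29 (SE 0.16, adjusted p = 0.9996). Without the first uninjured-father library it was 0.90 (adjusted p = 0.00815). The share of nuclei of the Cntn2 cluster, which have less Fgf12, was higher in both uninjured-father libraries, as given above. The part of this share in the atrial Fgf12 difference was not tested.

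Over the 11 classes the Fgf12 difference was positive in 10, and in 9 the groups did not overlap, the injured-father libraries being the higher. Of all genes tested, groups did not overlap, in either direction, for 36.6% in atrial, 29.4% in ventricular, 32.8% in endocardial, 35.4% in vascular endothelial, 33.8% in lymphatic endothelial, 29.4% in fibroblast, 32.6% in pericyte, 32.5% in smooth muscle and 33.1% in macrophage or monocyte nuclei. The classes share their libraries, so these are not separate observations. The values were 1.75 in endocardial (SE 0.32, adjusted p = 0.145), 1.24 in vascular endothelial (SE 0.38, adjusted p = 0.783), 1.23 in ventricular (SE 0.41, adjusted p = 0.999) and 0.99 in pericyte nuclei (SE 0.20, adjusted p = 0.0516). Fibroblast nuclei had 1.05 (SE 0.24, adjusted p = 0.9997). The exception by sign was the Schwann or glial class at -1.11 (SE 0.52, adjusted p = 0.994), where 1 nucleus of the first uninjured-father library held most of the UMIs. Beside these values, the atrial class made up 2.81% and 3.89% of an injured-father library and 2.94% and 1.37% of an uninjured-father library. The summed atrial markers in vascular endothelial nuclei were 101 and 189 CPM against 97.0 and 63.6 CPM. In macrophage or monocyte nuclei the sums were 106 and 156 CPM against 145 and 62.4 CPM, and overlapped. They also overlapped in B lymphocyte, Schwann or glial, smooth muscle and atrial nuclei, and in no other of the 11 classes. The part of atrial nuclei and their RNA in the Fgf12 differences outside the atrial class was not tested. The number of classes in which Fgf12 was called rose from 1 to 6 with no filter on low counts. With 1 library left out the difference ran from 1.33 to 2.30 in endocardial, from 0.65 to 2.58 in vascular endothelial and from 0.67 to 2.32 in ventricular nuclei. It also ran from 0.70 to 1.59 in fibroblast and from 0.69 to 1.52 in pericyte nuclei. Which classes had a call changed with the library left out, and not every call was higher with injured fathers. Without the second uninjured-father library, Fgf12 was called lower with injured fathers in Schwann or glial nuclei.

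In macrophage or monocyte nuclei Fgf12 was 261 and 191 CPM with injured fathers and 85.9 and 24.96 CPM with uninjured fathers. The log2 difference was 1.89 (SE 0.29, adjusted p = 0.00045), and it was the only one of 4 genes called in this class. With 1 library left out it ran from 1.38 to 3.21 and was called each time; the highest value was without the first uninjured-father library. These counts were 178, 183, 60 and 10 UMIs. Without the 3 nuclei that held at least 10 Fgf12 UMIs the mean per nucleus went from 0.472 to 0.215 in the first injured-father library and from 0.421 to 0.316 in the second, and stayed at 0.156 and 0.0373 in the uninjured-father libraries. The call was lost with doublets kept (1.14, adjusted p = 0.709), with a stricter nucleus filter (2.21, adjusted p = 0.0544) and with DESeq2 (2.01, adjusted p = 0.9999).

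**Figure D4:**
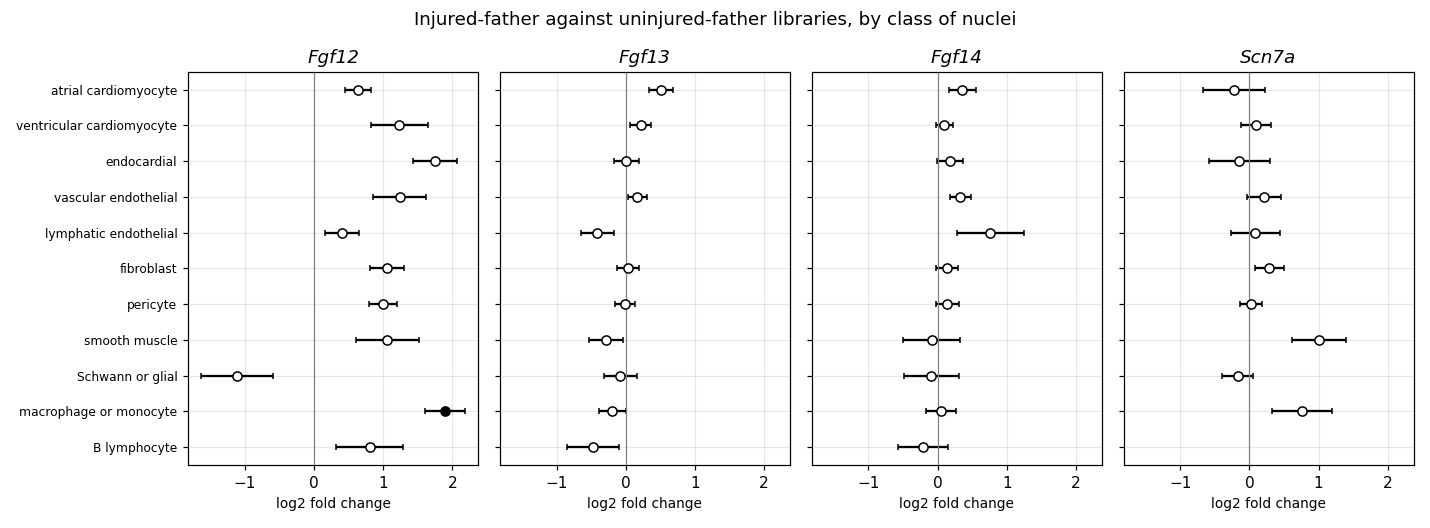
Log2 fold change with its standard error of injured-father over uninjured-father libraries for 4 genes in 11 classes of nuclei (edgeR). The filled point is the 1 call, Fgf12 in macrophage or monocyte nuclei; Fgf12 lies above 0 in 10 of 11 classes, and the other genes scatter around 0.

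No call was made for the other members that were tested with all 4 libraries. Without the first injured-father library Scn7a was called in fibroblast nuclei (0.62, adjusted p = 0.0486). Fgf13 differed by 0.51 in atrial nuclei (SE 0.18, adjusted p = 0.416), by 0.21 in ventricular nuclei (SE 0.16, adjusted p = 0.999) and by -0.47 in B lymphocyte nuclei (SE 0.38, adjusted p = 0.972). Its groups did not overlap in atrial and in ventricular nuclei, as for 36.6% and 29.4% of the genes tested there. Fgf14 differed by 0.36 in atrial (SE 0.20, adjusted p = 0.802), by 0.10 in ventricular (SE 0.12, adjusted p = 0.999) and by 0.18 in endocardial nuclei (SE 0.19, adjusted p = 0.9997). The 3 pairs of groups overlapped.

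Scn7a in Schwann or glial nuclei, the sheath cells of nerves, differed by -0.17 (SE 0.23, adjusted p = 0.994), and the groups overlapped. Scn10a in atrial nuclei differed by -0.39 (SE 0.48, adjusted p = 0.968) on 57 UMIs. Over all classes tested, log2 differences ran from -0.47 to 0.51 for Fgf13, from -0.21 to 0.76 for Fgf14 and from -0.22 to 1.01 for Scn7a. The highest of each were in atrial, lymphatic endothelial and smooth muscle nuclei. In lymphatic endothelial nuclei the Fgf14 value rested on the first injured-father library, with 427 CPM against 114, 157 and 173 CPM. With the second injured-father library left out, Fgf14 (1.42, adjusted p = 3.16e-05) and Fgf13 (-0.80, adjusted p = 0.0450) were called there.

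None of the 128 tests of other channel genes over the 11 classes was called by edgeR. At an unadjusted p under 0.05 by edgeR there were 17 of the 128, beside 4.59% of the tests of all genes in these classes. Pkp2 was among them in atrial, fibroblast, ventricular and macrophage or monocyte nuclei, lower with injured fathers each time. Nedd4l in atrial nuclei was also among them and was higher. The classes share their libraries, so these are not separate observations. The smallest adjusted p was 0.193, for Pkp2 in atrial nuclei, with a log2 difference of -0.66 (SE 0.19). Ank3, the scaffold protein ankyrin-G, had a log2 difference of -0.87 in B lymphocyte nuclei (SE 0.28, adjusted p = 0.645) and was not called. With all nuclei of a library summed, edgeR called none of 5 members and none of 20 other genes, beside 0.0873% of genes; 1 member had an unadjusted p under 0.05. DESeq2 called Pkp2 there (-0.61, adjusted p = 0.0423). Without the second injured-father library, Pkp2 was called in all nuclei, fibroblast and lymphatic endothelial nuclei. In all nuclei the Fgf12 difference was 1.19 (SE 0.46, adjusted p = 0.654), a sum that moves with the number of atrial nuclei. Such sums cannot tell fewer nuclei of a type from less RNA in each.

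Alpha and beta subunits outside the 6 genes showed where other sodium channels were counted; these were named after their levels had been seen. Scn3a, an alpha subunit known from developing neurons, was 433 ± 33.0 CPM in lymphatic endothelial nuclei and 205 ± 47.2 CPM in pericytes, against 7.28 ± 1.63 CPM in vascular endothelial nuclei (SD, n = 4). Lymphatic endothelial nuclei also had the highest level of the beta subunit gene Scn3b (61.8 ± 21.4 CPM) among the 11 classes. Scn8a was 42.5 ± 29.0 CPM in Schwann or glial nuclei, from 26 UMIs. Nalcn, the sodium leak channel, was 97.3 ± 20.5 CPM in endocardial nuclei.

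The genes most like each member were found by Pearson's r of log2(CPM + 1) over 44 sums (11 classes in 4 libraries, which share their libraries), among 10039 genes with at least 20 CPM in 1 class. Nearest to Fgf12 were Cpne5 (r = 0.86), Cacna2d2 (0.84) and Lmntd1 (0.83). Nearest to Fgf13 were Kbtbd12 (0.95), Clasp1 (0.94) and Pde4b (0.94). Nearest to Fgf14 were Dsg2 (0.91), a desmosome cadherin, Pde1c (0.83) and Cish (0.83). Nearest to Scn7a were Abca8b (0.96), Col27a1 (0.95) and Matn2 (0.94).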

How the data were processed

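The authors deposited 1 matrix of UMI counts for each library, not normalized; per the file headers it was written by Cell Ranger 6.0.1. The submitters' processing notes also name Seurat 4.0. The genome build behind the counts is not given in the sources used here. Nuclei were kept from 500 UMIs and 300 genes upward and under 5% mitochondrial UMIs; doublets were marked per library by Scrublet (scanpy 1.11.5). Leiden clustering (leidenalg 0.10.2, resolution 1, 3000 variable genes, 30 components, 20 neighbours) left out the 6 genes and 23 related ones. After being seen, 2 clusters were left unnamed: 306 nuclei led by myeloid and haemoglobin genes, and 276 nuclei with endocardial and fibroblast markers together. UMI counts were summed per library and class, the library being the replicate, and tested two-sided with edgeR 4.0.16 (TMM, minimum count 10, quasi-likelihood test, Benjamini-Hochberg over all genes tested). The atrial and ventricular test had the library as a block; a nucleus needed at least 2 UMIs of its chamber's markers and more than of the other's. A gene's father comparison was described in each class where its mean was at least 25% of that in its highest class. Up to 4 related genes were named per comparison, called ones first and then by p; results of some of them are not reported here. DESeq2 1.42.0, other scalings, filters and clusterings were alternatives. The scripts were tested on data simulated from the ventricular sums alone, with 1 common spread for all 12106 genes. Log2 changes of 1 were recovered for 72.4% of 98 changed genes, and changes of 2 for 98% of 99. There were 15 false calls. Smaller classes were not simulated. The members and lists were chosen with earlier results of these data known. Each library is 1 heart, so p-values of the father comparison measure the spread between 2 hearts per group. Those of the atrial and ventricular test measure the spread, over 4 hearts, of the difference within a heart.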

Additional observations from a re-analysis of the deposited data

How the results depend on the processing

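The counts of members called in the atrial and ventricular comparison were 4 under every alternative tried. The counts for paternal injury were less stable. With no filter on low counts, 1 member (Fgf12) was called in all nuclei, endocardial, fibroblast, pericyte, vascular endothelial and ventricular nuclei, where the main fit called 0. The replicate numbers pair no libraries by their labels, and deviations of same-numbered libraries correlated at -0.04 to 0.12. With the replicate block, 1 member was called in endocardial, pericyte and vascular endothelial nuclei (Fgf12 at 1.66, 1.00 and 1.32) and none was lost. The count in macrophage or monocyte nuclei fell to 0 with DESeq2, doublets kept or a stricter nucleus filter (at least 1000 UMIs and under 1% mitochondrial UMIs). Leaving out each library gave 0 to 1 calls in all nuclei, B lymphocyte, Schwann or glial, atrial, endocardial, pericyte, smooth muscle and vascular endothelial nuclei, 0 to 2 in fibroblast and in lymphatic endothelial nuclei, 1 to 1 in macrophage or monocyte nuclei and 0 to 0 in ventricular nuclei; a lone library was assumed to vary like the other group. The Schwann or glial call among these was of Fgf12, lower with injured fathers. Directions turned for values that were never called. Fgf14 in endocardial nuclei went to -0.31 with the stricter filter, and ran from -0.0011 to 0.35 with a library left out. Scn7a in Schwann or glial nuclei went to 0.12 with doublets kept, and ran from -0.45 to 0.059. Fgf13 in B lymphocyte nuclei ran from -1.23 to 0.051. At resolution 2.0 the mean atrial Fgf12 level was 15006 CPM, since the nuclei of the Cntn2 cluster were set apart. With the unnamed endocardial and fibroblast cluster joined, endocardial Fgf14 was 898 CPM and its difference by father 0.028. With doublets kept the Scn7a level in Schwann or glial nuclei was 1701 CPM. After thinning, 40.5% of endocardial nuclei had an Fgf14 UMI and 79.6% of Schwann or glial nuclei an Scn7a UMI. B lymphocyte and Schwann or glial nuclei fell under 30 in a library with the stricter filter and gave no value. The cause of these changes was not tested. The clustering at resolution 2.0 for the atrial and ventricular test and the joined cluster were added after seeing the data. With 2 hearts per group, Scn10a and Scn4b were limited by depth.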
